A study of Mus musculus with 6 samples.

Results

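The 8 genes described here are imprinted, expressed in brain and scattered outside the large imprinted clusters: Peg3, Peg10, Sgce, Mest, Nnat, Gnas, Grb10 and Igf2r. Their members were the array probes that lie in 7 windows of the mm9 build, since Peg10 and Sgce share a window. The windows held 388 of the 174638 probes that are not controls. All but 2 of these probes fell into 16 of the 22574 regions of the array, where a region is a run of at least 3 probes whose starts lie at most 500 bp apart. A region was included if any of its probes lay in a window. Gnas region 1 had 44 of its 61 probes in the window and Gnas region 5 had 121 of its 129, and region values use all their probes. The windows were set by position and not by any measured value, though they were chosen with earlier results of these data known. No gene names accompany the probes in the array files and no mm9 annotation was used here, so a region is given by its position and is not assigned to an exon, an intron or a promoter.

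The DNA came from the hypothalamus of mouse offspring at an age of 16 weeks. The first group came from dams treated with inulin, a plant fibre that gut microbes ferment, with 3 arrays. The second group came from obese dams, labelled both as maternal obesity and as maternal high fat diet, with 3 arrays. The labels do not say which diet the inulin dams ate beside the inulin, and they give no strain, sex, genotype or litter, so the p-values measure only the spread between these samples. Each two-colour array compared DNA enriched by an antibody against methylated cytosine (MeDIP, in Cy5) with that sample's own input DNA (in Cy3). Hypothalamic tissue holds many cell types, and a change in their proportions cannot be told apart from a change of methylation within a cell type.

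Every value below is the log2 ratio of MeDIP over input, centred on the median of its array, so 0 is the middle of the array and not an unmethylated state. It is a relative level that also moves with the number of CpG sites under a probe, and it gives no percentage of methylated alleles. Input spots stood well above background at between 94.4% and 96.4% of probes and MeDIP spots at between 77.3% and 85.7%. The interquartile range of the ratio over all probes was 1.37, 1.39 and 1.38 on inulin arrays 1 to 3, against 1.62, 1.89 and 1.69 on obesity arrays 1 to 3, so the inulin arrays were narrower. Values with the arrays set to an equal scale are given beside the results that they move. Arrays were grouped by the scan time in the file headers. Such a set is called a slide below, though it may not be a physical slide. By this grouping no slide held both groups. The inulin arrays shared 1 set, obesity arrays 1 and 3 shared another, and obesity array 2 stood by itself. Slide and group thus cannot be fully told apart, and precision is limited by having 3 arrays in each group.

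Imprinted genes are expressed from the maternal or the paternal copy only, according to methylation set in the egg or the sperm at a differentially methylated region. At such a region of an imprinted locus the mark lies on a single parental copy, and it is kept through the loss of methylation in the early embryo by proteins that include ZFP57, which in the mouse binds a methylated TGCCGC. Several imprinted genes act on growth, feeding and energy balance, and the hypothalamus is a site of action of some of them.

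RefSeq promoters of the GRCm38.p6 build, from 250 bases before to 50 after each start, were at hand for 6 of the 8 genes and gave 12 promoters. Peg10 and Sgce were not among them. The promoters of Nnat and Grb10 are shown because these 2 loci held the regions past the threshold, and because the Grb10 promoters differ widely in CpG content. Capitals mark CpG sites, the sites that methylation and the antibody act on. The array positions are mm9 and these are GRCm38, so the promoters were not placed on the array regions.
Nnat, chr2:157559828-157560127, plus strand: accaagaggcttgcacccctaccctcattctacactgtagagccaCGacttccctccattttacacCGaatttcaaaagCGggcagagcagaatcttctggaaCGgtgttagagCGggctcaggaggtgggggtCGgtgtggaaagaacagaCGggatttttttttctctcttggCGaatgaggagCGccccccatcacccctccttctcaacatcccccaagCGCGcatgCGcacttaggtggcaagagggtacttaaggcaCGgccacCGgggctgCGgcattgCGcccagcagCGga
Grb10 promoter 1, chr11:12027922-12028221, minus strand: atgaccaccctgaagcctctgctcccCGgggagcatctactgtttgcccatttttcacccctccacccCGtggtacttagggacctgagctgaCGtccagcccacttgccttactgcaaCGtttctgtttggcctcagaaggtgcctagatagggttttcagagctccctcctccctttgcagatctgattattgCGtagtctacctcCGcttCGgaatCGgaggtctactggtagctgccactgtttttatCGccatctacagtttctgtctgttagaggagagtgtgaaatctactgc
Grb10 promoter 2, chr11:12037371-12037670, minus strand: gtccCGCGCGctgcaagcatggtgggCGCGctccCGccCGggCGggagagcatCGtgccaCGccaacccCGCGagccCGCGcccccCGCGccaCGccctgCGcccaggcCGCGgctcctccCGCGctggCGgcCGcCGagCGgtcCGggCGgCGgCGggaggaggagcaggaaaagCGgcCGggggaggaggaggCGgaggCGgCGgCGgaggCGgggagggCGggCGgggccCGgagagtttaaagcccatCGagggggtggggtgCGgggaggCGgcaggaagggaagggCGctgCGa
The Nnat promoter held 17 CpG sites. Grb10 promoter 1 held 9 and promoter 2 held 45, a count that 98.4% of the 32851 promoters did not exceed, and the median promoter held 7. The motif TGCCGC, searched on both strands (as TGCCGC or GCGGCA) and free to share its CG with the CpG count, was found once in the Nnat promoter, once in Grb10 promoter 2 and not in Grb10 promoter 1. It was found in 4 of the 12 promoters, of which 2 are Mest promoters that overlap almost entirely, and in 11.6% of all promoters. A match describes these letters only.

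Before any comparison of the groups, the loci differed in level. The mean over all probes of a window and over the 6 arrays was 1.15 for Mest, 0.56 for Grb10, 0.55 for Peg10-Sgce, 0.18 for Nnat, 0.16 for Igf2r, -0.018 for Peg3 and -0.087 for Gnas. Mest lay above Grb10 on 6 of 6 arrays, Peg10-Sgce above Nnat on 6 of 6, and Igf2r above Peg3 on 6 of 6. Grb10 and Peg10-Sgce differed by 0.016 ± 0.29 (SD over arrays, n = 6), Nnat and Igf2r by 0.024 ± 0.21, and Peg3 and Gnas by 0.069 ± 0.10, so these neighbours in the order did not differ beyond their spread. These levels compare different probes, whose CpG content is not the same, and no test was made of them. At Peg3, Mest, Gnas, Grb10 and Igf2r the highest and lowest regions of a locus lay further apart in level than the groups did at any of its regions. Of the 16 regions, 4 lay above the 90th percentile of all regions of the array: Grb10 region 2 at the 99.9th, Mest region 2 at the 99.8th, Mest region 1 at the 97.8th and Peg3 region 2 below them. The level of Grb10 region 2 includes probes with dim input. Over its 5 probes with input above background on all arrays, single arrays read between 0.82 and 1.15. Peg3 region 1 lay lowest, at the 13.6th percentile.

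**Figure D1:**
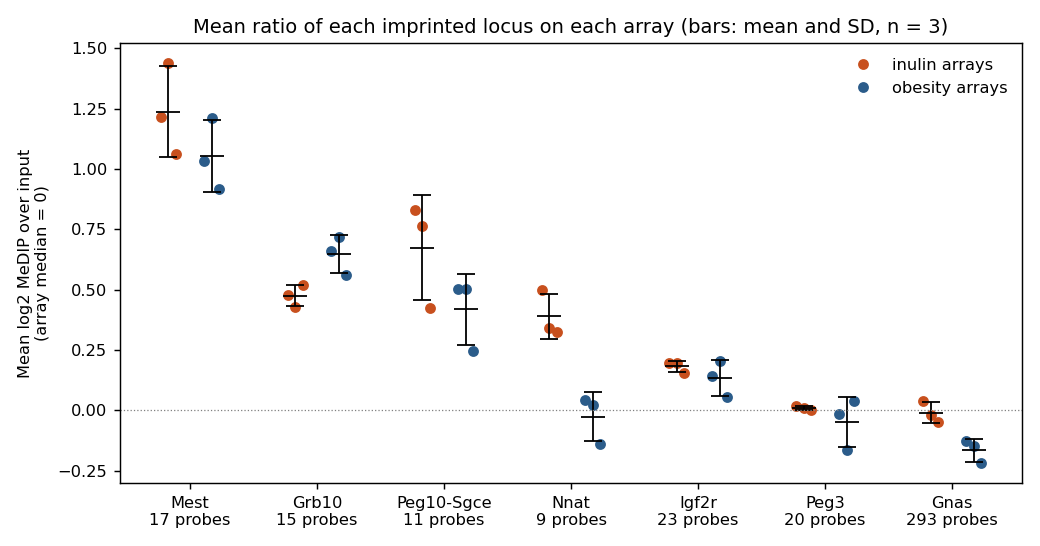
Mean log2 MeDIP over input ratio of each of the 7 windows, with inulin arrays left of obesity arrays; points are single arrays and bars are the mean with its SD (n = 3 per group). The groups do not overlap at Nnat and Gnas, where inulin lies above, and at Grb10, where it lies below. Of all regions of the array, the groups did not overlap at 35.0%, with inulin above at 20.8% and below at 14.2%.

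Between the groups, the question was whether methylation at these loci at 16 weeks differed with the treatment of the dam. A single region rose and a single region fell: the Nnat region was higher in the inulin group, by 0.42 on the log2 scale, and Grb10 region 2 was lower, by 0.46. These are 2 of 16 regions (12.5%) past an adjusted p of 0.05 (limma, Benjamini-Hochberg over all regions), where 7.42% of all regions passed, so the count lay near the background of the array. Regions called higher made up 5.61% of all regions and those called lower 1.81%, that is 1267 against 408, and with the arrays set to an equal scale the split was 522 against 480. The difference was above 0 at 14 of the 16 regions (87.5%), against 57.3% of all regions, and its median was 0.15 over the 16 regions, against 0.033 over all. Of the 16, 5 are neighbouring stretches of the Gnas window, so these counts are not of separate results. With a gap of 1000 bp there were 13 regions, of which 11 were above 0. Their median was 0.077, against 0.035 over all. At an unadjusted p under 0.05 there were 5 of the 16, where 28.6% of all regions were. The groups did not overlap at 7 of the 16 regions, where 35.0% of all did not, with inulin above at 6 (20.8% of all) and below at 1 (14.2% of all).

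**Figure D2:**
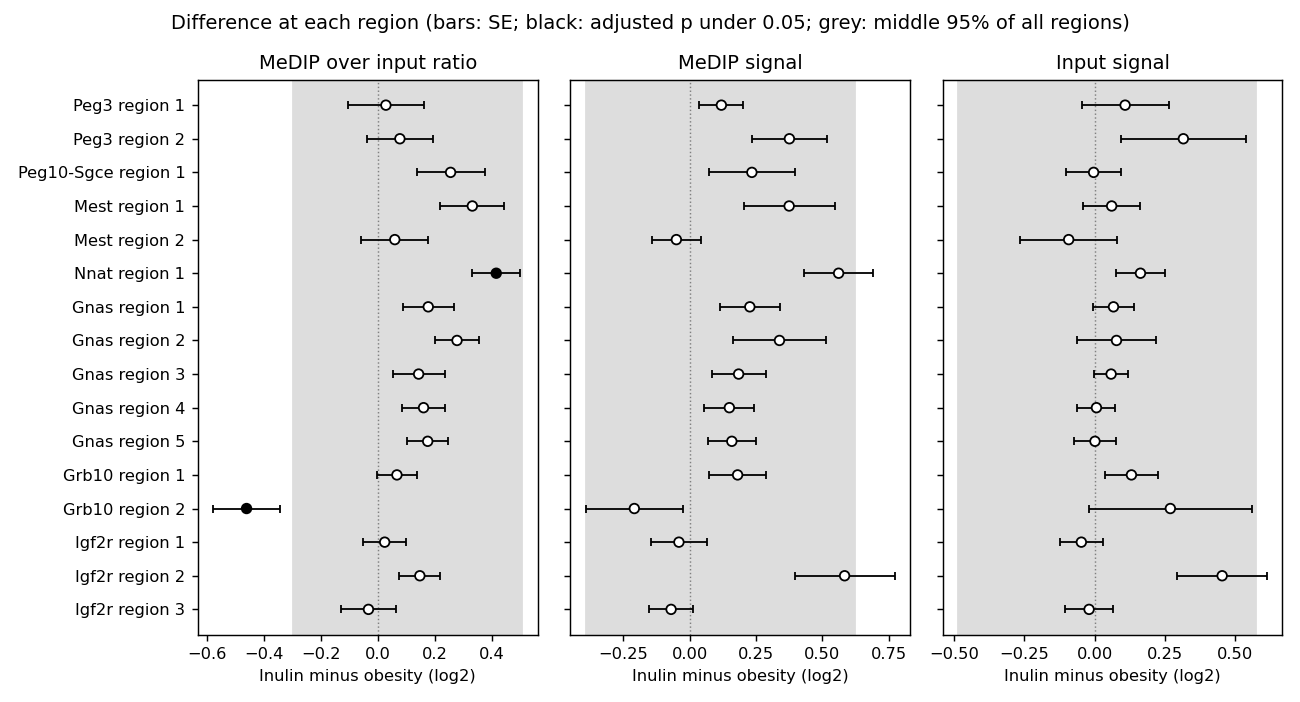
Difference on the log2 scale, inulin minus obesity, of each of the 16 regions in the ratio and in the MeDIP and input signals, with the standard error from limma; black points passed the adjusted threshold of 0.05 and the grey band holds the middle 95% of all regions. In the ratio the Nnat region and Grb10 region 2 are black and 14 of 16 points lie above 0, and in neither single channel is any point black.

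Among the paternally expressed genes, Nnat encodes neuronatin, a small membrane protein of the endoplasmic reticulum that is abundant in the developing brain and is expressed in hypothalamic nuclei that govern feeding. The probes of its window form Nnat region 1, a run of 9 probes, chr2:157384549-157386233. Its ratio was 0.50, 0.34 and 0.33 on inulin arrays 1 to 3, against 0.042, 0.021 and -0.14 on obesity arrays 1 to 3. All inulin arrays lay above all obesity arrays. The means were 0.39 ± 0.095 over the inulin arrays and -0.026 ± 0.10 over the obesity arrays (SD, n = 3 each), and the difference of 0.42 with a standard error of 0.084 had an adjusted p of 0.0277 (limma, Benjamini-Hochberg). As the mean of the window it had p = 0.1 in the exact permutation test (two-sided), which is the smallest that 3 against 3 arrays allow, and 0.23 after adjustment over the 7 windows.

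The shift at Nnat did not lie evenly over the region. It was higher in the inulin group at 7 of 9 probes, and 3 neighbouring probes passed the threshold on their own. Probe Ch_220697_0092450, chr2:157384958-157385017, read -0.47, -0.82 and -0.53 on the inulin arrays, against -1.44, -1.63 and -1.54 on the obesity arrays, a difference of 0.93 (adjusted p = 0.0170, limma). Probe Ch_220697_0092451, chr2:157385169-157385217, read 0.16, -0.20 and -0.062 on the inulin arrays, against -0.84, -1.05 and -0.91 on the obesity arrays, a difference of 0.90 (adjusted p = 0.0184, limma). Over the last 4 probes of the region the groups met, with differences of either sign and none past the threshold. The difference of the region was between 0.31 and 0.51 when any single probe was left out. In the MeDIP channel alone the region was higher by 0.56 (adjusted p = 0.109, limma) and in the input channel by 0.16 (adjusted p = 0.302, limma). The difference of Nnat region 1 was 0.22 with normexp background correction (adjusted p = 0.0384, limma) and 0.14 with the median of its probes (adjusted p = 0.529). With slide as a random block the adjusted p was 0.127, and it was 0.0984, 0.105 and 0.0672 without inulin array 1, 2 or 3 and 0.0566 without obesity array 3.

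**Figure D3:**
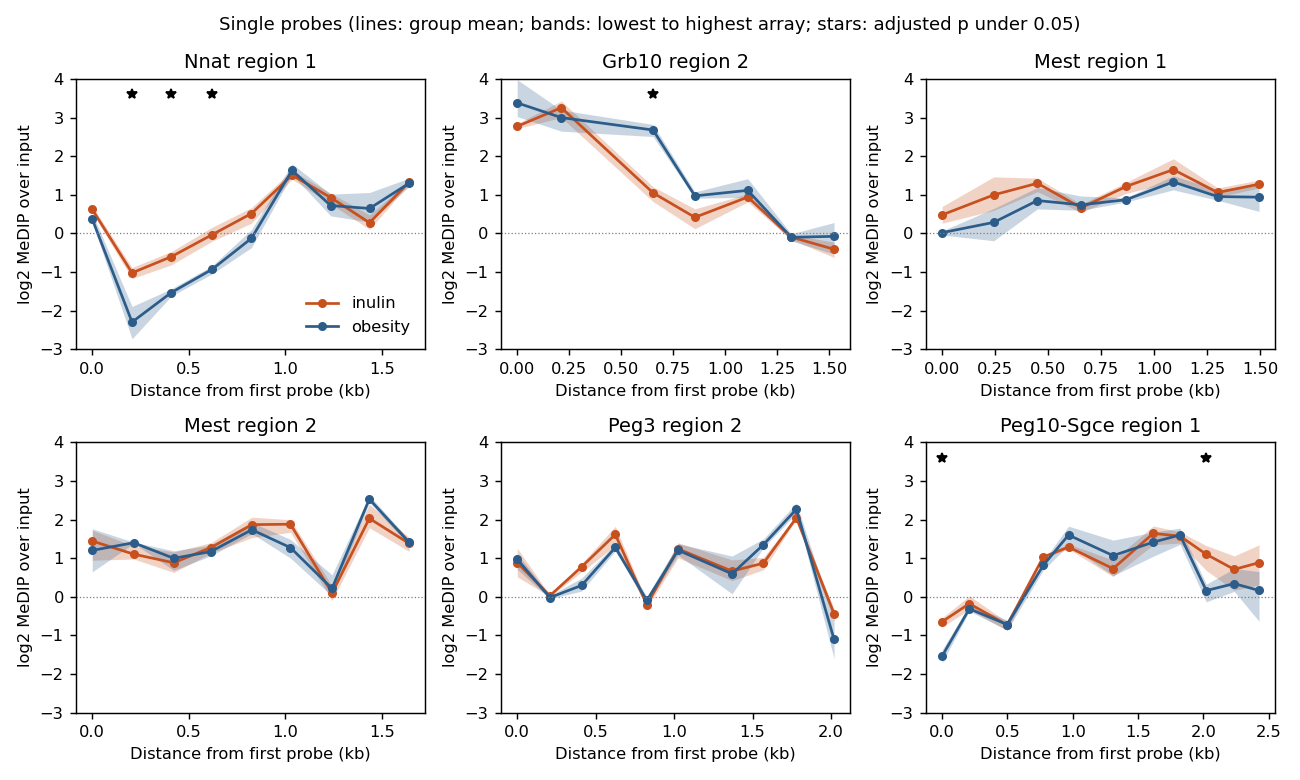
Log2 MeDIP over input ratio of single probes along 6 regions, by distance from the first probe in kb; lines are group means of the inulin and obesity arrays, bands run from the lowest to the highest array, and stars mark probes past the adjusted threshold of 0.05. At Nnat the bands part over neighbouring probes in the first part of the region, at Grb10 region 2 they part most at a single probe, and at Mest and Peg3 both groups follow the same profile.

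Mest encodes an enzyme of the alpha/beta hydrolase fold that is linked in the mouse to growth and to the expansion of fat tissue. It had the highest level of the 7 windows. Mest region 1, chr6:30682209-30683748, read 1.06, 1.25 and 0.93 on the inulin arrays, against 0.71, 0.94 and 0.59 on the obesity arrays. The lowest inulin array lay just below the highest obesity array, and the difference was 0.33 with a standard error of 0.11 (adjusted p = 0.0946, limma). It passed with the arrays set to an equal scale, at 0.55 with an adjusted p of 0.0274 (limma). Mest region 2, chr6:30686799-30688485, was the higher of the pair, with 1.35, 1.63 and 1.18 on the inulin arrays, against 1.32, 1.46 and 1.21 on the obesity arrays. There the groups overlapped and the difference of Mest region 2 was 0.059 (adjusted p = 0.778, limma), or 0.37 on an equal scale (adjusted p = 0.0918).

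Peg10, a gene derived from a retrotransposon that the placenta needs, and Sgce, which encodes epsilon-sarcoglycan of the cell membrane, are neighbours that run in opposite directions and are both expressed from the paternal copy. Their window held 1 region of 11 probes, chr6:4696014-4698493. It read 0.83, 0.76 and 0.43 on the inulin arrays, against 0.50, 0.50 and 0.25 on the obesity arrays. Inulin array 3 lay below obesity arrays 1 and 2, and the difference was 0.25 with a standard error of 0.12 (adjusted p = 0.196, limma). Normexp background correction gave 0.13 for Peg10-Sgce region 1 and equal scaling gave 0.38, neither past the threshold. Of its probes 2 passed on their own, both higher in the inulin group, and they lay near the ends of the region. Ch_220697_0124176 at chr6:4696014-4696063 differed by 0.89 (adjusted p = 0.0185, limma) and Ch_220697_0124184 at chr6:4698037-4698083 by 0.94 (adjusted p = 0.0428, limma).

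Peg3 encodes a zinc finger protein that in the mouse acts in the hypothalamus on maternal care and energy balance. Its window held regions at opposite ends of the scale. Region 2, chr7:6682153-6684230, read 0.75, 0.94 and 0.67 on the inulin arrays, against 0.67, 0.93 and 0.52 on the obesity arrays. Region 1, chr7:6658175-6659863, read -0.83, -0.89 and -0.79 on the inulin arrays, against -0.90, -1.14 and -0.54 on the obesity arrays. The groups overlapped at both regions, with differences of 0.077 (adjusted p = 0.696) and 0.028 (adjusted p = 0.917, limma), and the difference of Peg3 region 1 was -0.17 with the arrays set to an equal scale and 0.26 over its probes with input above background. In region 1, probe Ch_220697_0134409 at chr7:6659394-6659447 was higher by 0.69 in the inulin group (adjusted p = 0.0491, limma).

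Grb10 encodes an adaptor protein that binds the insulin receptor and dampens its signal. In the mouse it is expressed from the maternal copy in most tissues and from the paternal copy in neurons, through different promoters. Region 2, chr11:11937080-11938651, had the highest mean of the 16 regions, taken over all its probes and the 6 arrays. Mest region 2 was higher over the inulin arrays alone, at 1.39 against 1.20. Grb10 region 2 read 1.15, 1.09 and 1.36 on the inulin arrays, against 1.59, 1.90 and 1.49 on the obesity arrays. All inulin arrays thus lay below all obesity arrays. The means were 1.20 ± 0.14 over the inulin arrays and 1.66 ± 0.21 over the obesity arrays (SD, n = 3 each), and the difference of -0.46 with a standard error of 0.12 had an adjusted p of 0.0466 (limma, Benjamini-Hochberg). With the arrays set to an equal scale the difference was -0.13 (adjusted p = 0.419, limma), with slide as a random block it was -0.48 (adjusted p = 0.146), and without any single array the adjusted p lay between 0.0503 and 0.172.

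A single probe carried much of the Grb10 difference. Probe Ch_220697_0009042, chr11:11937733-11937777, read 1.11, 0.82 and 1.21 on the inulin arrays, against 2.70, 2.82 and 2.51 on the obesity arrays, a difference of -1.63 (adjusted p = 0.00654, limma). Its input spot stood well above background on 3 inulin arrays and on 1 obesity array, so its ratio on the other obesity arrays divides by a dim input signal. Without this probe the region differed by -0.25. Over the 5 probes of the region whose input was above background on every array, the ratio was 0.84, 0.82 and 1.02 on the inulin arrays, against 1.06, 1.15 and 0.99 on the obesity arrays. These values overlapped, with a difference of -0.17. Another probe was marked as an outlier on inulin array 3 and obesity array 2 and is missing from their means. With such spots kept, the region read 1.17, 1.11 and 1.13 on the inulin arrays, against 1.59, 1.62 and 1.50 on the obesity arrays. Grb10 region 1, chr11:11927485-11929193, lay below the array median in both groups, with -0.11, -0.15 and -0.11 on the inulin arrays, against -0.15, -0.17 and -0.25 on the obesity arrays, and differed by 0.067 (adjusted p = 0.557, limma). Its probe Ch_220697_0009032 at chr11:11927485-11927538 was higher by 0.51 in the inulin group (adjusted p = 0.0417, limma).

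**Figure D4:**
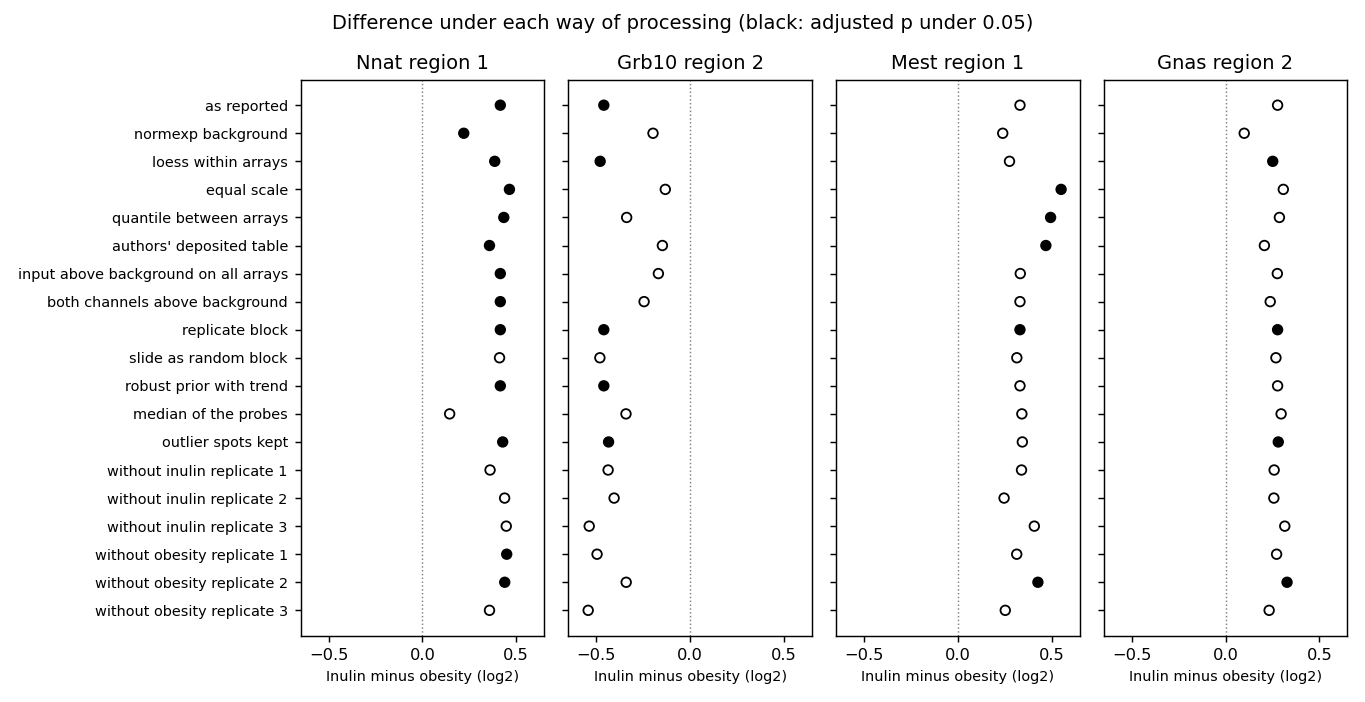
Difference in log2 ratio, inulin minus obesity, of the Nnat region, Grb10 region 2, Mest region 1 and Gnas region 2 under each way of processing the arrays; black points passed the adjusted threshold of 0.05 in limma and open points did not. The Grb10 difference stays below 0 and the others above 0 throughout, and the Grb10 call is lost under 14 of the alternatives.

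Gnas encodes the stimulatory alpha subunit that couples receptors, the melanocortin receptor of the hypothalamus among them, to cyclic AMP. The locus makes further transcripts from other promoters, some from the maternal and some from the paternal copy. It was by far the most densely tiled of the windows, with 293 of the 388 probes. The mean of the window was 0.037, -0.019 and -0.048 on the inulin arrays, against -0.13, -0.15 and -0.22 on the obesity arrays. All inulin arrays lay above all obesity arrays, with a difference of 0.15 and p = 0.1 in the exact permutation test (two-sided), the smallest the design allows, and 0.23 after adjustment over the windows. None of its 5 regions passed the threshold (limma, Benjamini-Hochberg), with 2 at an unadjusted p under 0.05, and all 5 were higher in the inulin group, by between 0.14 and 0.28.

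The largest Gnas difference was at region 2, chr2:174115825-174119241, which read 0.28, 0.28 and 0.16 on the inulin arrays, against -0.049, 0.063 and -0.13 on the obesity arrays. The groups did not overlap, and the difference of 0.28 with a standard error of 0.079 had an adjusted p of 0.0622 (limma). With normexp the difference of Gnas region 2 was 0.10 (adjusted p = 0.271, limma). Region 3, chr2:174119702-174129729, had the highest level, with 0.60 ± 0.11 over the inulin arrays and 0.46 ± 0.13 over the obesity arrays (SD, n = 3 each). Region 5, chr2:174147160-174176708, had the lowest, with -0.39 ± 0.059 over the inulin arrays and -0.57 ± 0.063 over the obesity arrays, and a difference of 0.17 (adjusted p = 0.153, limma), or 0.065 on an equal scale. In bins of 5 kb the locus showed peaks and troughs that both groups shared. The ratio was highest at 15 to 20 kb from the start of the window, with 0.81 over the inulin arrays and 0.70 over the obesity arrays, and lowest at 60 to 65 kb, with -0.70 over the inulin arrays and -0.81 over the obesity arrays. Inulin was higher in 13 of 14 bins, and the groups did not overlap in 5, all with inulin above. The widest gap was at 40 to 45 kb, with -0.32 ± 0.040 over the inulin arrays and -0.63 ± 0.027 over the obesity arrays. The exception was the bin at 55 to 60 kb, with a difference of -0.015. Of all regions of the array, 57.3% were higher in the inulin group. The groups did not overlap at 35.0% of all regions, and at 20.8% with inulin above. The bins are neighbouring stretches of a single window on the same arrays, so their counts are not separate results. The bins were chosen after the data were seen and were not tested.

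**Figure D5:**
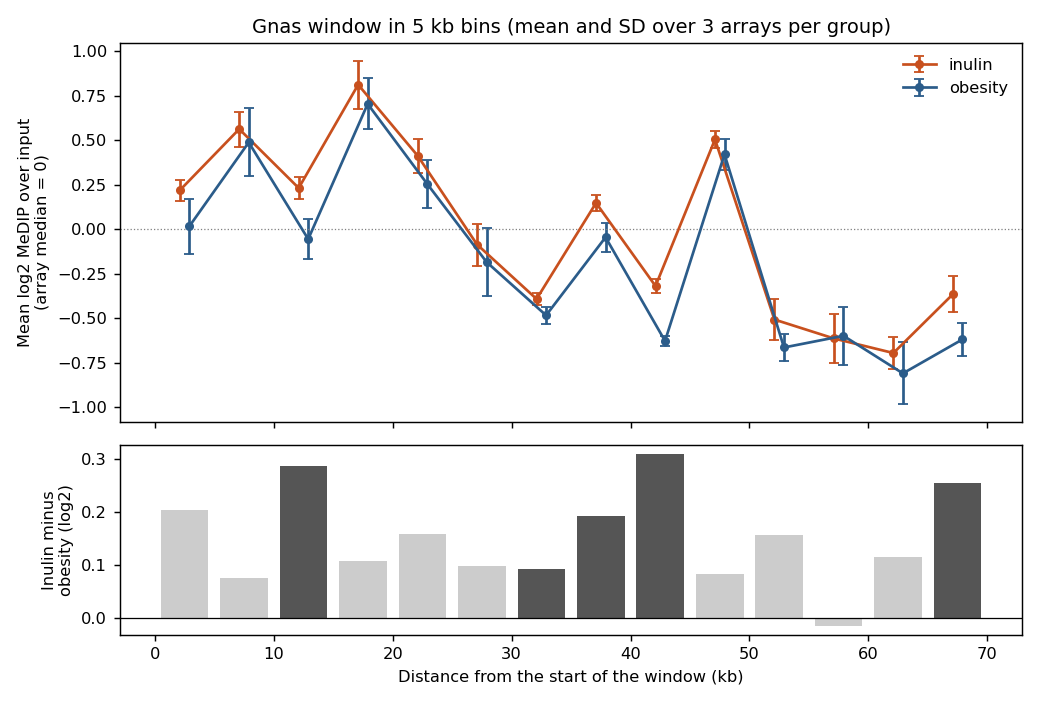
Top: mean log2 MeDIP over input ratio in 5 kb bins along the Gnas window, by distance from its start in kb, with the mean and SD of the 3 inulin and the 3 obesity arrays. Bottom: inulin minus obesity in each bin, dark where the groups do not overlap; both groups are highest at 15 to 20 kb and lowest at 60 to 65 kb, and 13 of 14 bars lie above 0.

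Igf2r encodes the receptor that takes up and clears the growth factor IGF2. In the mouse it is expressed from the maternal copy in most tissues and from both copies in neurons, and the paternal copy makes the non-coding RNA Airn. Its window read 0.20, 0.20 and 0.15 on the inulin arrays, against 0.14, 0.20 and 0.056 on the obesity arrays, so the groups overlapped and differed by 0.048 (p = 0.4, exact permutation test). Region 2, chr17:12932877-12934624, had the largest difference, at 0.15 (adjusted p = 0.214, limma), and all inulin arrays lay above all obesity arrays there. The difference of Igf2r region 2 was 0.30 and passed (adjusted p = 0.0358, limma) over its probes with input above background on all arrays, and was 0.045 with loess (adjusted p = 0.705). Region 3, chr17:12962074-12963709, had the highest level of the window, with 0.27 ± 0.045 over the inulin arrays and 0.31 ± 0.18 over the obesity arrays (SD, n = 3 each). It differed by -0.033 (adjusted p = 0.856, limma), and the sign turned with the arrays set to an equal scale, at 0.040.

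By single probes, 378 of the 388 had enough values to be tested. Of these 36 (9.52%) were higher in the inulin group past the threshold, where 5.12% of all probes were, and 5 (1.32%) were lower, where 3.08% were (limma, Benjamini-Hochberg over all probes). Gnas held 29 of the 36 and 4 of the 5. The probes called higher were low in the obesity group, below 0 at 35 of 36, with a median of -1.17, and the 5 called lower were above 0 there, with a median of 0.76. Of the 378 tested, 191 were below 0 in the obesity group, with a median of -0.014. The called probes were selected by a difference that includes these obesity values, so the pattern is not a separate result. With the arrays set to an equal scale, 22 were called higher and 3 lower, where 2931 of all 170019 probes tested were higher and 3107 lower. The Gnas probe with the lowest p, Ch_220697_0094235 at chr2:174162072-174162118, was lower in the inulin group by 1.26 (adjusted p = 0.00662, limma). Its MeDIP spot stood above background on 3 obesity arrays and on 0 inulin arrays, so the direction was measured and the size is uncertain. Ch_220697_0094148 at chr2:174141383-174141442 was too dim in the MeDIP channel on all arrays, so it lacks a measured difference. Of the 36 probes called higher, 2 were that dim on all arrays.

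Each channel was also compared by itself, on log2 signals centred on the array median. In the MeDIP channel 12 of the 16 regions were higher in the inulin group, against 62.4% of all regions, and 0 passed the adjusted threshold by limma, where 0.253% of all passed, with 3 of 16 at an unadjusted p under 0.05 (21.0% of all). In the input channel 12 of 16 were higher as well, against 57.9% of all, and 0 passed by limma, where 2.14% of all passed, with 1 at an unadjusted p under 0.05 (24.4% of all). With spots marked as outliers kept, a choice made after the data were seen, 5 member regions passed in the MeDIP channel (14.0% of all regions) and 1 in the input channel (24.7% of all). A spot left out drops from the region mean of its array, so some arrays averaged fewer probes than others. That 0 passed as reported thus does not show that the channels were alike between the groups. At Igf2r region 2 the MeDIP signal was higher by 0.58 (adjusted p = 0.166, limma) and the input signal by 0.45 (adjusted p = 0.154, limma) in the inulin group, and with outlier spots kept these were 0.37 and 0.24. At Grb10 region 2 the MeDIP signal differed by -0.21 (adjusted p = 0.535, limma) and the input signal by 0.27 (adjusted p = 0.601, limma). With outlier spots kept these were -0.22 (adjusted p = 0.0980, limma) and 0.25 (adjusted p = 0.0666, limma). The MeDIP signal then read 0.64, 0.68 and 0.66 on the inulin arrays, against 0.89, 0.75 and 0.99 on the obesity arrays. The input signal read -0.55, -0.46 and -0.49 on the inulin arrays, against -0.75, -0.93 and -0.59 on the obesity arrays. At Grb10 region 1 the MeDIP and input signals differed by 0.18 and 0.13, so the MeDIP differences of the Grb10 regions had opposite signs. By window, the MeDIP signal of Nnat was higher by 0.56 and that of Grb10 differed by -0.00035, while the input signal of Grb10 was higher by 0.19 in the inulin group (p = 1 and p = 0.3, exact permutation tests of the Grb10 channels).

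Across the arrays, the loci whose deviations from their own mean lay closest together were Gnas and Igf2r, at a Euclidean distance of 0.15 over the 6 arrays. Peg3 lay closest to Gnas, at 0.23, Mest and Peg10-Sgce to each other, at 0.28, Grb10 to Igf2r, at 0.28, and Nnat to Peg10-Sgce, at 0.31. The pair farthest apart was Nnat and Grb10, at 0.74. These distances describe 6 arrays that share their layout and scale, and carry no test.

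Set beside 51 regions of the clustered imprinted domains, the scattered loci were higher in the inulin group at 14 of 16 regions, with a median difference of 0.15, against 32 of 51 with a median of 0.052. By domain the count was 13 of 15 in the Prader-Willi and Angelman domain, a share like that of the scattered loci, 5 of 9 in the Dlk1-Dio3 domain and 14 of 27 in the H19-Igf2 and Kcnq1 domains. Those domains held 4 regions called higher and 0 called lower by limma, with 12 at an unadjusted p under 0.05. All 4 lay in the Prader-Willi and Angelman domain on chromosome 7, whose 15 regions had a median difference of 0.23, and the Dlk1-Dio3 domain and the H19-Igf2 and Kcnq1 domains had medians of 0.019 and 0.014. The difference between these sets of regions was not tested.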

How the data were processed

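Per the labels' protocols, MeDIP DNA was labelled with Cy5 and input DNA with Cy3, and the authors hybridised each sample to a two-colour Agilent array. Per the file headers, the arrays were extracted with Feature Extraction 11.0.1.1 (protocol ChIP_1100_Jul11), with positions in mm9. Per the file headers, the intensity values used here had their background subtracted and each dye multiplied by a constant. The deposited log10 ratio of red over green was the log10 of the ratio of these signals, within 1e-04 at 98.5% to 99.6% of spots per array. The authors also deposited a table with a score for each probe and array, whose correlation with that array's log2 ratio was between 0.866 and 0.912. Its direction is thus the same, while its scale and centring are unknown, and its medians per array were 0.0607, 0.0570 and 0.0431 for inulin and 0.0565, 0.0544 and 0.0540 for obesity. It served as an alternative only.

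From the deposited intensities, log2 of red over green was taken without the spots marked as outliers (1901 to 4863 per array) and centred on each array's median, with no loess or quantile step. Log2 ratios of the 6 arrays correlated at 0.900 to 0.971. Regions with at least 3 probes were averaged, and features needed values on 2 arrays per group. Groups were compared over the whole array with limma 3.58.1 in R 4.3.3 (lmFit, eBayes, two-sided, Benjamini-Hochberg, threshold 0.05), and window means by exact permutation tests. Tested on simulated data with the means and spreads of these arrays, the region test recovered 28, 46, 49 and 50 of 50 changed regions at log2 shifts of 0.5, 1, 2 and 3 among 22572 regions, with 9 false calls. The probe test recovered 0, 7, 36 and 46 of 50 at the same shifts among 161716 probes, with 1 false call. The simulated spread was independent between features and held no slide effect and no difference in scale between the groups. In it 5.56% of unchanged regions had an unadjusted p under 0.05 (limma), against 28.6% of all regions in the data. The simulated counts thus do not measure the error or power of the reported calls.

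The text names, in each window, every region past the threshold, the region with the largest difference and the highest and lowest regions, and at most the 2 probes per window with the lowest p among those past the threshold. The genes, windows and lists were chosen with earlier results of these data known. Alternatives were another background correction (normexp, offset 50), other scalings, the deposited table, filters on dim spots, blocks for replicate number and slide, a robust prior, a gap of 1000 bp, region medians in place of means, and omission of each array. Keeping outlier spots, leaving out each probe and the 5 kb bins of Gnas were chosen after the data were seen. Figures were drawn with matplotlib 3.10.9.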

Additional observations from a re-analysis of the deposited data

How the results depend on the processing

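Of the 16 regions, 2 passed the threshold as reported. By limma the number was 1 with normexp background correction and with both channels above background, 0 with the median of the probes and with slide as a random block (estimated correlation 0.289, where 0 of all regions passed), and between 0 and 3 when a single array was left out. It was 0 without inulin array 1, 2 or 3 and without obesity array 3, and 3 without obesity array 2. Replicate numbers were not paired. Deviations correlated at -0.145, 0.278 and 0.329 in same-numbered samples and -0.378 to 0.217 in others. With replicate number as a block 4 member regions passed, with 2133 array regions higher and 566 lower. The Nnat region kept its direction under all alternatives run and lost its call with slide as a block (adjusted p = 0.127), with the median of the probes (0.14, adjusted p = 0.529) and without inulin array 1, 2 or 3 or obesity array 3. Grb10 region 2 kept its direction under all of them and lost its call under 14, at -0.20 with normexp, -0.34 with quantile normalization and -0.15 in the authors' deposited table. Mest region 1 passed with equal scale, quantile normalization, the deposited table, the replicate block and without obesity array 2, and Gnas region 2 with loess (0.25, adjusted p = 0.040), the replicate block, outlier spots kept and without obesity array 2. Gnas region 2 was at 0.10 with normexp (adjusted p = 0.271). Igf2r region 2 passed at 0.30 over probes with input above background on all arrays, where it and the Nnat region were the 2 called. Probes called higher, 36 as reported, numbered 58 with normexp, 22 with equal scale, 13 with quantile normalization, 0 with slide as a block and 0 to 36 without a single array. Probes called lower, 5 as reported, numbered 22 with normexp, 8 with both channels above background and with the robust prior, 3 with equal scale, quantile normalization and the deposited table, 2 with slide as a block and 2 to 5 without a single array. Of all probes tested, 8.21% passed in either direction as reported, 15.9% with normexp, 3.55% with equal scale and 2.70% with quantile normalization. The share was 12.6% with both channels above background, 8.47% with the robust prior and 2.77% with the deposited table. With slide as a block it was 0.159%, and without a single array between 0.421% and 9.07%. Normexp called 13640 probes of the array higher and 13450 lower. Regions called in the clustered domains, 4 as reported, numbered 2 with quantile normalization and with the median of the probes, 1 with the deposited table and with either filter on dim spots, 0 with slide as a block, 7 with outlier spots kept and 0 to 4 without a single array. Of all regions, 2.20% passed with quantile normalization, 2.58% with the deposited table and 11.7% with outlier spots kept. With input above background on all arrays the share was 5.53%. Keeping outlier spots, chosen after the data were seen, gave 5 member regions in the MeDIP channel, where 14.0% of all regions passed. It gave 1 in the input channel, where 24.7% of all passed, against 0 in each as reported. At Peg3 region 2 the MeDIP signal of inulin array 2 was 1.51 without such spots and 1.90 with them kept. At Igf2r region 2 the MeDIP signal of obesity array 2 was -1.05 without them and -0.53 with them kept. With the median of the probes the window differences were -0.066 for Peg3 and -0.047 for Igf2r. Small regional differences turned sign. Peg3 region 1 was at -0.17 with equal scale and with quantile normalization, -0.061 in the deposited table, -0.23 with the median of the probes and between -0.11 and 0.19 without a single array, at the low end without obesity array 2. Peg3 region 2 was at -0.036 with the median of the probes, -0.00058 without inulin array 2, and between -0.015 (without obesity array 3) and 0.19 without a single array. Mest region 2 was between -0.061 (without inulin array 2) and 0.16 without a single array. Igf2r region 1 was at -0.039 with normexp, -0.0014 in the deposited table, -0.025 with the median of the probes and between -0.031 (without obesity array 3) and 0.059 without a single array. Igf2r region 3 was at 0.040 with equal scale and between -0.090 and 0.070 (without obesity array 2) without a single array. The causes of these changes were not tested.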
